A study of Mus musculus with 9 samples.

Results

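Ccr9, Lrrc26, Grhl3, Rnase6, Galnt5, Smim6 and Asprv1 are 7 genes whose transcripts stood among the deepest falls when PGC-1α was overexpressed in cultured mouse muscle. They were chosen from 55421 annotated genes by their change against the control virus in the deposited tables of the full-length form and of a truncated form. Those changes are therefore given as a description, with no test. The comparison between the forms was not itself used for the choice and was tested. It is the difference between those changes, so it is not independent of the choice. The cells were C2C12 myotubes, fibres that fuse from a mouse myoblast line. They were differentiated for 4 days, exposed for 4 h to adenovirus at an MOI of 3, and harvested 48 h after infection, with 3 libraries of polyadenylated RNA for each virus. All groups were thus virus-infected cultures of 1 cell line and differed by the insert. It was LacZ, a bacterial enzyme, in the control, HA-Flag-PGC-1α FL, the complete protein and here FL, or HA-Flag-PGC-1α deltaCTD, which lacks the C-terminal domain and is here dCTD.

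PGC-1α is a transcriptional coactivator of mitochondrial and oxidative metabolism. It docks on transcription factors through its N-terminal and central parts, and its C-terminal domain carries RNA-binding motifs. The genes described here are best known from other tissues. Ccr9 encodes the receptor for the chemokine Ccl25 and guides lymphocytes to gut and thymus. Lrrc26 is a gamma subunit that lets the BK potassium channel open near resting voltage in secretory epithelia. Grhl3 is a grainyhead-like transcription factor needed for the skin barrier and neural tube closure. Rnase6 is a secreted antimicrobial ribonuclease. Galnt5 adds the initial N-acetylgalactosamine of mucin-type O-glycans. Smim6 encodes endoregulin, a micropeptide that inhibits the calcium pump SERCA. Asprv1 is a retroviral-like aspartic protease of the epidermis that takes part in filaggrin processing.

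The libraries held between 110309704 and 118931863 reads in the LacZ group, between 99906750 and 123446198 in the FL group and between 87090490 and 110673140 in the dCTD group. Ppargc1a, the gene for PGC-1α, had a normalized count between 383 and 408 in the control, which rose to between 198071 and 227297 for FL and between 100543 and 121631 for dCTD. The FL and dCTD groups thus differed in the Ppargc1a count as well as in the domain, and these cannot be told apart in any comparison of the forms below. The count is not corrected for the length of the insert, which is shorter for dCTD. How far the transgene level itself differed was therefore not tested. Reads from cultured cells are summed over the dish, so fewer expressing cells and less RNA per cell cannot be told apart.

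The promoters of 4 of these genes are shown. Lrrc26, Rnase6 and Galnt5 are those with a motif match, and Ccr9 had the deepest fall with FL and no match. Each is the RefSeq stretch of 300 bases on GRCm38.p6, 250 before and 50 after the annotated start, on the plus strand. Capitals mark matches to the motifs searched, and the Ccr9 stretch held none. The Ccr9 stretch lies far inside the span given below for the gene, which begins at 123678439. That start was not searched. They lie at chr9:123766961-123767260 for Ccr9, chr2:25289661-25289960 for Lrrc26, chr14:51128814-51129113 for the Rnase6 start shown and chr2:57997905-57998204 for Galnt5.
Ccr9: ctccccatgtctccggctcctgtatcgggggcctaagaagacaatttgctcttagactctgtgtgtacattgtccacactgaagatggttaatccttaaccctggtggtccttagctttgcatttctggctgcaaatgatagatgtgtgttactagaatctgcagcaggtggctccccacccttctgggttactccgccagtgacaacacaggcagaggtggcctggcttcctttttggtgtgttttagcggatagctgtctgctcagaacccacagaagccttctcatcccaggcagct
Lrrc26: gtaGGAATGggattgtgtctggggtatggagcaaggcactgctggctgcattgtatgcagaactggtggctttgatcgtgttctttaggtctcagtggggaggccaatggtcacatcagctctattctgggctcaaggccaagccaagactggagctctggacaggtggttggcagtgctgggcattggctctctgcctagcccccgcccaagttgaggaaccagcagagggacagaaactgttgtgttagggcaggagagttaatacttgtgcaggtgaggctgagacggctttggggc
Rnase6: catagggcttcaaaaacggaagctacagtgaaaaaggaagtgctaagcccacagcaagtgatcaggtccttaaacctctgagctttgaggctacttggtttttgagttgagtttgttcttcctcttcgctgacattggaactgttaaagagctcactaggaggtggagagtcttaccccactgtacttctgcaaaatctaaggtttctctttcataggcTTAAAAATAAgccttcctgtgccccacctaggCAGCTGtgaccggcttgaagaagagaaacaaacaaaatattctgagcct
Galnt5: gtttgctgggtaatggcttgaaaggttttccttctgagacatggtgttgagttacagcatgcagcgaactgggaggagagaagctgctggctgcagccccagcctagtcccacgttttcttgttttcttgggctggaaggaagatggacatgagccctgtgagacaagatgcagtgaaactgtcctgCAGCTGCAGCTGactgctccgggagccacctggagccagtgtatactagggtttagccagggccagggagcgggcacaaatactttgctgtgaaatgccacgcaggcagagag

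The motifs, searched on both strands, were the ERR element TNAAGGTCA, the muscle E-box CAGCTG, the grainyhead site AACCGGTT, the AP-1 site TGANTCA, the TEAD site GGAATG, and the MEF2 and CArG motifs by name. RefSeq gave 9 promoters for the 7 genes, with 3 for Rnase6. Galnt5 held a pair of adjacent E-boxes, beginning 63 and 57 bases before the start. Rnase6 held a MEF2 match 31 bases before the start and an E-box at base 2, counting the start as base 1, and another of its annotated starts shares both. Lrrc26 held a TEAD match 247 bases before the start. No motif was found in the windows of Ccr9, Grhl3, Smim6 or Asprv1, and the ERR, grainyhead, AP-1 and CArG letters were in none of the 9 windows. Among all 32851 promoters of the same length, 16.3% held the E-box, 3.19% MEF2, 14.7% the TEAD site, 7.81% AP-1, 1.63% CArG, 1.28% the ERR element and 0.146% the grainyhead site. Fewer than 5 CG dinucleotides were held by 6 of the 9 windows, against 38.0% of all promoters, whose median was 7. These windows belong to 4 of the 7 genes, Ccr9, Lrrc26, Rnase6 and Asprv1, and include all 3 of Rnase6.

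Each gene is described by its normalized count on a scale shared by all 9 libraries, which is read counts divided by a size factor per library. Changes are log2 differences of normalized count + 1 with their standard error from limma and 3 libraries a group. All 7 genes had a mean above 10 in every group, so none depended on the filter on low values.

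Ccr9 (ENSMUSG00000029530, chromosome 9, 123678439 to 123784330, plus strand, mm10) had normalized counts of 219.4, 216.6 and 259.4 with LacZ, from 227 to 294 reads. It had 13.3, 16.97 and 5.6 with FL, from 5 to 19 reads, and 26.2, 27.9 and 34.8 with dCTD, from 23 to 36 reads. The chemokine receptor transcript was thus low in every library with either form, and every FL library lay below every dCTD library. The level left was 5.15% ± 2.51 (SD, n = 3) of the LacZ mean with FL and 12.8% ± 1.95 (n = 3) with dCTD. This was a change of -4.29 ± 0.33 with FL and -2.94 ± 0.15 with dCTD. FL replicate 3, with 5 reads, lay well below the other FL libraries, and the remaining level rests on few reads.

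Lrrc26 (ENSMUSG00000026961, chromosome 2, 25289915 to 25291180, plus strand) had 274.3, 313.0 and 301.8 with LacZ. With FL it had 15.5, 12.5 and 21.1, and with dCTD 24.2, 10.9 and 21.3. The BK channel subunit fell to a like depth with both forms, and the FL and dCTD libraries overlapped. The level left was 5.53% ± 1.48 (n = 3) with FL and 6.34% ± 2.36 (n = 3) with dCTD, from 9 to 24 reads per library. The changes were -4.13 ± 0.17 and -3.99 ± 0.22, and with dCTD no other of the 7 genes had a deeper one.

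Grhl3 (ENSMUSG00000037188, chromosome 4, 135541888 to 135573630, minus strand) was the most abundant in LacZ, with 1792.3, 1914.3 and 1695.8. It had 199.6, 175.0 and 159.2 with FL and 331.1, 294.8 and 304.4 with dCTD. The transcription factor kept a higher level with dCTD in every library, and the libraries within each group lay close together. This left 9.88% ± 1.13 (n = 3) with FL and 17.2% ± 1.04 (n = 3) with dCTD. The changes were -3.34 ± 0.08 and -2.54 ± 0.07.

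Rnase6 (ENSMUSG00000021880, chromosome 14, 51123908 to 51132187, plus strand) had 131.3, 147.0 and 141.2 with LacZ, 14.4, 17.9 and 11.1 with FL and 24.2, 30.3 and 32.9 with dCTD. The ribonuclease transcript was lower in every FL library than in any dCTD library. The transcript kept 10.3% ± 2.41 (n = 3) with FL and 20.8% ± 3.17 (n = 3) with dCTD. The changes were -3.21 ± 0.19 and -2.24 ± 0.16.

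Galnt5 (ENSMUSG00000026828, chromosome 2, 57997884 to 58045860, plus strand) had 170.0, 165.1 and 187.0 with LacZ, 16.6, 22.3 and 15.6 with FL and 84.8, 60.7 and 78.3 with dCTD. The glycosyltransferase was thus strongly low with FL and kept a far higher level with dCTD. The level left was 10.4% ± 2.08 (n = 3) with FL and 42.9% ± 7.18 (n = 3) with dCTD. The changes were -3.21 ± 0.18 and -1.23 ± 0.14. Galnt5 therefore goes against a description of these genes as among the deepest falls with both forms, since its fall was rank 12 of 14247 with FL and rank 189 of 14225 with dCTD.

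Smim6 (ENSMUSG00000075420, chromosome 11, 115912017 to 115913920, plus strand) had 362.4, 464.7 and 390.0 with LacZ, 47.7, 49.1 and 51.2 with FL and 48.5, 51.0 and 58.0 with dCTD. The micropeptide transcript had nearly the same level with both forms, and the groups overlapped. The remaining level was 12.2% ± 0.437 (n = 3) with FL and 12.9% ± 1.22 (n = 3) with dCTD. The changes were -3.01 ± 0.12 and -2.93 ± 0.12.

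Asprv1 (ENSMUSG00000033508, chromosome 6, 86628164 to 86629710, plus strand) had 492.8, 527.7 and 553.2 with LacZ, 135.3, 76.8 and 84.6 with FL and 59.6, 98.3 and 87.9 with dCTD. The protease had the only mean of the 7 that was lower with dCTD than with FL, with overlapping groups. Relative to the LacZ mean, 18.9% ± 6.05 (n = 3) remained with FL and 15.6% ± 3.82 (n = 3) with dCTD. FL replicate 1 stood apart at 135.3, and the other FL libraries lay inside the range with dCTD. The changes were -2.44 ± 0.19 and -2.70 ± 0.14.

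**Figure D1:**
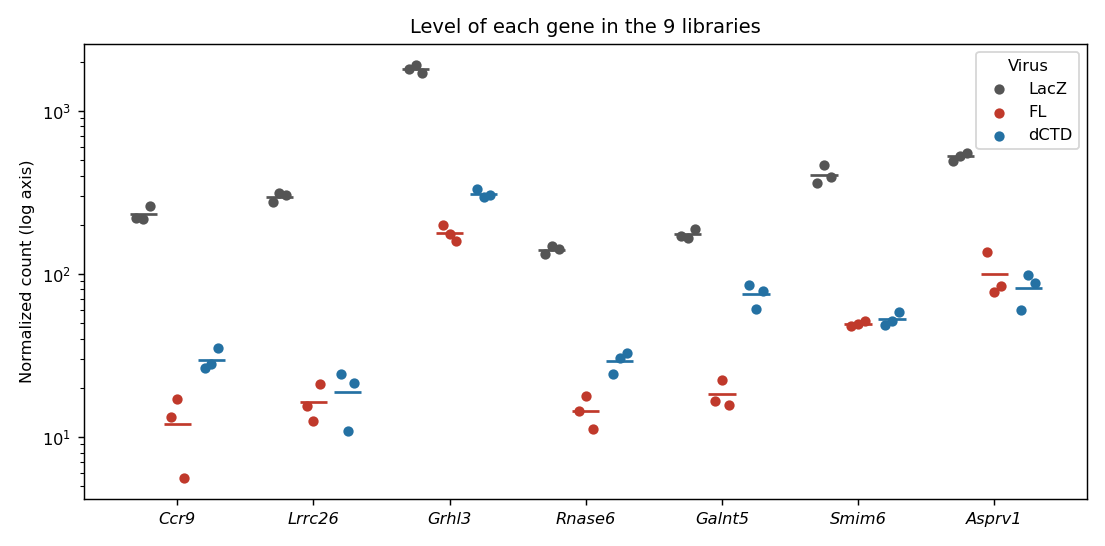
Normalized count (log axis) of the 7 genes in the 9 libraries. Points are libraries and bars are group means for LacZ, FL and dCTD, with 3 libraries each. LacZ libraries lie above all others for every gene, and FL lies below dCTD without overlap for Ccr9, Grhl3, Rnase6 and Galnt5.

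In the ranking of falls among genes with a LacZ mean of at least 50, Ccr9 and Lrrc26 were ranks 2 and 3 of 14247 with FL and ranks 5 and 2 of 14225 with dCTD. Grhl3, Rnase6, Smim6 and Asprv1 were ranks 10, 11, 20 and 49 with FL and ranks 13, 21, 6 and 9 with dCTD. The set is thus not the whole top of either ranking. Dppa2, with -4.41, was rank 1 with FL, and Hsd17b13, with -4.20, was rank 1 with dCTD and rank 4 with FL at -3.98. Around the least changed member, the genes ranked just above and below Asprv1 with FL were at -2.44 and -2.38, and the gene ranked just above Galnt5 with dCTD was at -1.23. A fall of at least 2 on the log2 scale was seen for 7 of 7 genes with FL, against 0.905% of all tested genes, and for 6 of 7 with dCTD, against 0.382%. All 7 had every FL library below every LacZ library, against 31.3% of tested genes, and every dCTD library below every LacZ library, against 26.1%. The rule chose the genes by these changes, so nothing is read from the counts. The authors' deposited table gave log2 changes of -3.92 for Ccr9 and -3.03 for Galnt5 with FL and, in that for dCTD, -2.65 and -1.12.

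FL and dCTD were then compared directly, which asks whether the depth of the fall differs between the forms. Since the same LacZ libraries serve both, the difference between FL and dCTD is the difference between the falls. Of the 7 genes, 4 were lower with FL than with dCTD, 0 were higher and 3 did not pass (limma on log2 values, Benjamini-Hochberg over 18155 genes). Of all tested genes, 39.9% passed in either direction and 17.8% were lower with FL. Of the calls 44.6% were lower with FL, and 63.5% when the libraries were scaled by total counts without Ppargc1a, where 4 of the 7 genes still passed. The median difference was -0.80 over the 7 genes and -0.00 over all tested genes. Genes taken from the low end with FL are more likely to lie low in the FL libraries by chance, which favours lower values with FL. For genes taken from the low end with dCTD the choice favours the other direction. The count, and the p-values of single genes, are read with both limits.

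Galnt5 differed most, by -1.98 ± 0.22 (95% interval -2.43 to -1.53, limma adjusted p = 1.33e-08), and its mean with dCTD was 4.10 times that with FL. Ccr9 differed by -1.35 ± 0.33 (-2.03 to -0.67, adjusted p = 0.00146), a level 2.48 times as high with dCTD. Rnase6 differed by -0.97 ± 0.28 (-1.55 to -0.40, adjusted p = 0.00608) and Grhl3 by -0.80 ± 0.10 (-1.01 to -0.59, adjusted p = 1.6e-07). These 4 genes, a receptor, a ribonuclease, a transcription factor and a glycosyltransferase, had FL below dCTD in all 3 libraries against all 3. Non-overlapping groups with FL below dCTD were seen in 22.8% of all tested genes. As a share of the FL fall on the log2 scale, the dCTD fall was 38.4% for Galnt5, 68.5% for Ccr9, 69.8% for Rnase6 and 76.2% for Grhl3.

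Lrrc26 differed by -0.15 ± 0.33 (adjusted p = 0.771), and the 95% interval ran from 1.76-fold lower to 1.44-fold higher with FL. Smim6 differed by -0.08 ± 0.18 (adjusted p = 0.763), with an interval from 1.37-fold lower to 1.22-fold higher. Asprv1 differed by 0.25 ± 0.21 (adjusted p = 0.362), with an interval from 1.13-fold lower to 1.61-fold higher. For these 3 genes no difference between the forms was detectable, and the intervals still allow differences of the sizes given. A level of 9 to 24 reads per library limits Lrrc26. The dCTD fall was 96.6%, 97.5% and 110.8% of the FL fall for Lrrc26, Smim6 and Asprv1.

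**Figure D2:**
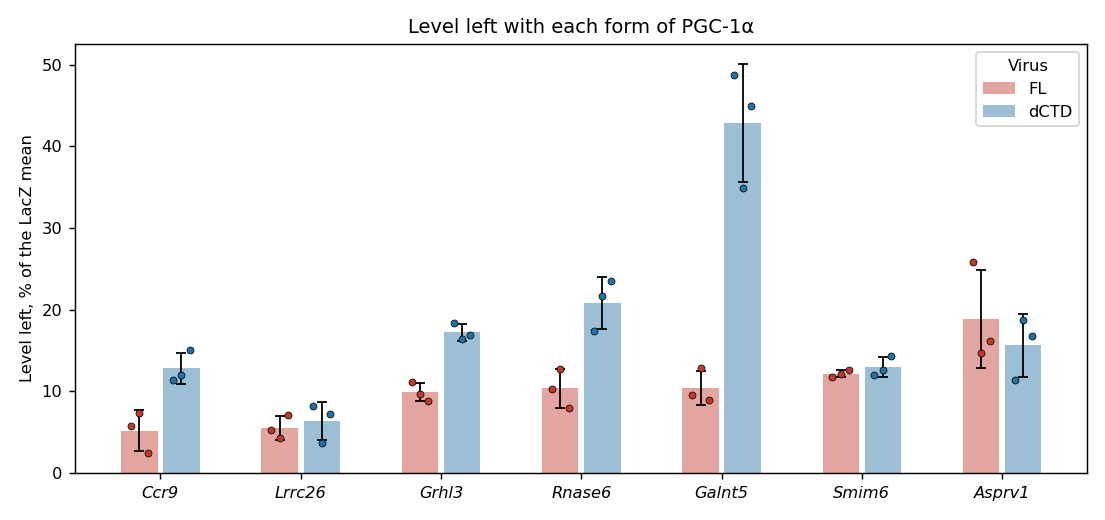
Level left with FL and with dCTD, in percent of the LacZ mean, for each gene. Bars are means, error bars SD and points the 3 libraries of each virus. Galnt5 keeps 42.9% with dCTD and 10.4% with FL, while Smim6 keeps 12.9% and 12.2%.

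**Figure D3:**
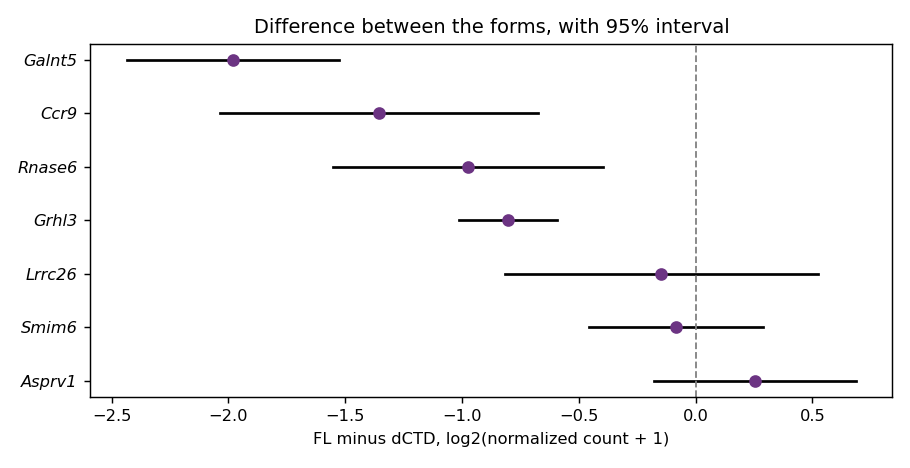
Difference between FL and dCTD on the log2(normalized count + 1) scale with its 95% interval from limma, 3 libraries per form. The intervals of Galnt5, Ccr9, Rnase6 and Grhl3 lie below 0, and those of Lrrc26, Smim6 and Asprv1 include 0.

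Levels of different genes were set in order per kilobase of exon, from the annotated exon union. With LacZ the order was Grhl3 at 646 ± 39.3 (SD, n = 3) normalized counts per kb, Smim6 at 415 ± 54.1, Asprv1 at 339 ± 19.6, Lrrc26 at 249 ± 16.7, Rnase6 at 52.4 ± 2.97, Galnt5 at 39.0 ± 2.58 and Ccr9 at 22.6 ± 2.33. No neighbours in this order overlapped in their libraries. With FL, Asprv1 at 63.9 ± 20.5 and Grhl3 at 63.8 ± 7.30 overlapped in their libraries, and so did Rnase6 at 5.42 ± 1.26 and Galnt5 at 4.07 ± 0.813. Smim6, at 48.7 to 52.4 with FL, also reached into the Asprv1 range of 49.6 to 87.4. With dCTD, Grhl3 at 111 ± 6.74 led, Smim6 at 53.6 ± 5.05 and Asprv1 at 53.0 ± 13.0 were alike within their spread, and so were Galnt5 at 16.7 ± 2.80 and Lrrc26 at 15.8 ± 5.87. Rnase6, at 9.08 to 12.3 with dCTD, overlapped Lrrc26 at 9.17 to 20.4. By this length Ccr9 was lowest per kb in all 3 groups, and it stood at percentile 18.9 of tested genes with LacZ, against 63.5 for Grhl3. Its exon union of 10260 bases joins 6 annotated transcripts, so its place depends on that length. Which transcripts were expressed was not tested.

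Exon bases shared with other genes bear on the Ccr9 and Galnt5 values. Whether reads were counted by strand is not given in the sources used here. Of the 10260 exon bases of Ccr9, 1932 (18.8%) also belong to Gm17021, an antisense long non-coding RNA, whose normalized count was 27.5 ± 9.85 with LacZ. Gm17021 changed by -0.62 ± 0.28 with FL and -0.14 ± 0.28 with dCTD, and neither passed (limma adjusted p = 0.0578 and 0.726). On the same strand as Ccr9, Gm17200 shares 269 of its exon bases (2.62%), whatever the strand setting. Gm17200 was at 0.906 ± 0.883 normalized counts with LacZ. Slc6a20a, on the other strand, shares 22 bases (0.214%) with Ccr9 and was at 2.41 ± 1.81 with LacZ. Galnt5 shares 237 bases (5.31%) with Ermn, which had at most 1 read in any group. Ccr9 also spans Lztfl1 on the other strand, with 0 exon bases shared, and Smim6 lies in the same way within Recql5.

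The genes around these loci moved only in part with them. Of 46 tested genes within 100 kb, 22 were lower, 10 higher and 14 not called with FL (limma), against 28.3% of all tested genes lower. Of all calls with FL 47.8% were lower, and 60.9% under scaling by total counts. With dCTD 18 were lower and 8 higher, against 21.7% lower. A fall of at least 1 on the log2 scale was seen for 8 of the 46 with FL and 8 with dCTD, against 4.42% and 2.67% of all tested genes. A rise of at least 1 was seen for 4 with FL and 2 with dCTD, against 8.66% and 4.31%. Beside Ccr9, Cxcr6, the receptor for the chemokine Cxcl16, starts 22145 bases further on and fell by 2.29 on the log2 scale with FL and by 2.32 with dCTD (adjusted p = 5.21e-22 and 4.61e-17). Lztfl1, a regulator of ciliary trafficking that lies inside the Ccr9 span, changed by -1.13 ± 0.04 and -0.74 ± 0.04. Fyco1, a lysosome transport adaptor 5170 bases after Ccr9, changed by -0.23 ± 0.04 with FL and -0.01 ± 0.04 with dCTD, the latter not called. The 3 genes at this locus thus spanned deep, moderate and small changes.

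Smim5, another small membrane protein gene and 5748 bases before Smim6, had 1954 ± 212 (n = 3) normalized counts in the control, 548 ± 25.6 under FL and 641 ± 27.7 under dCTD. Its changes were -1.83 ± 0.07 and -1.61 ± 0.07 (limma adjusted p = 6.28e-20 and 1.74e-15). Mxd1, a transcriptional repressor of the Myc network 17332 bases after Asprv1, changed by -1.33 ± 0.04 and -1.10 ± 0.04. Grin1, an NMDA receptor subunit on the other strand whose 3′ end lies 1 base beyond Lrrc26, changed by -1.17 ± 0.26 and -1.18 ± 0.31 from a low level of 32.2 ± 2.18. All of these passed the test with both forms. Other neighbours with large changes, in either direction, were named after their values were seen. Grin1os, a long non-coding RNA on the strand of Lrrc26 that begins 40 bases beyond it, within the span of Grin1, changed by -2.39 ± 0.36 and -2.04 ± 0.35 from 29.2 ± 9.44 normalized counts. Myo15b, a myosin gene 19414 bases before Smim6, rose by 6.09 ± 0.10 and 3.27 ± 0.13, from 38.6 ± 4.84 normalized counts to 2691 ± 256 with FL and 381 ± 17.7 with dCTD. Cytip, a cytohesin-interacting protein gene 83277 bases after Galnt5, rose by 4.02 ± 0.55 and 4.63 ± 0.51 from 2.39 ± 2.75. Tprn, the gene for taperin, 20030 bases before Lrrc26, rose by 1.75 ± 0.06 and 0.24 ± 0.06. Neighbours of the same gene thus moved in opposite directions at the Lrrc26 and Smim6 loci. Several other nearest tested genes moved little with FL and dCTD. Sacm1l before Ccr9 was at 0.16 and 0.09, Anapc2 before Lrrc26 at -0.25 and -0.12, and Sap30bp after Smim6 at -0.29 and -0.27. So were 1600020E01Rik before Asprv1 (-0.19 and -0.19), Gm13534 after Galnt5 (-0.17 and 0.09), 1810028F09Rik after Rnase6 (-0.06 and -0.23) and Recql5 (-0.20 and 0.01). Beside Grhl3, at low levels, Stpg1 was at -0.21 and -1.03 and Gm23106 at -1.56 and 0.02.

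**Figure D4:**
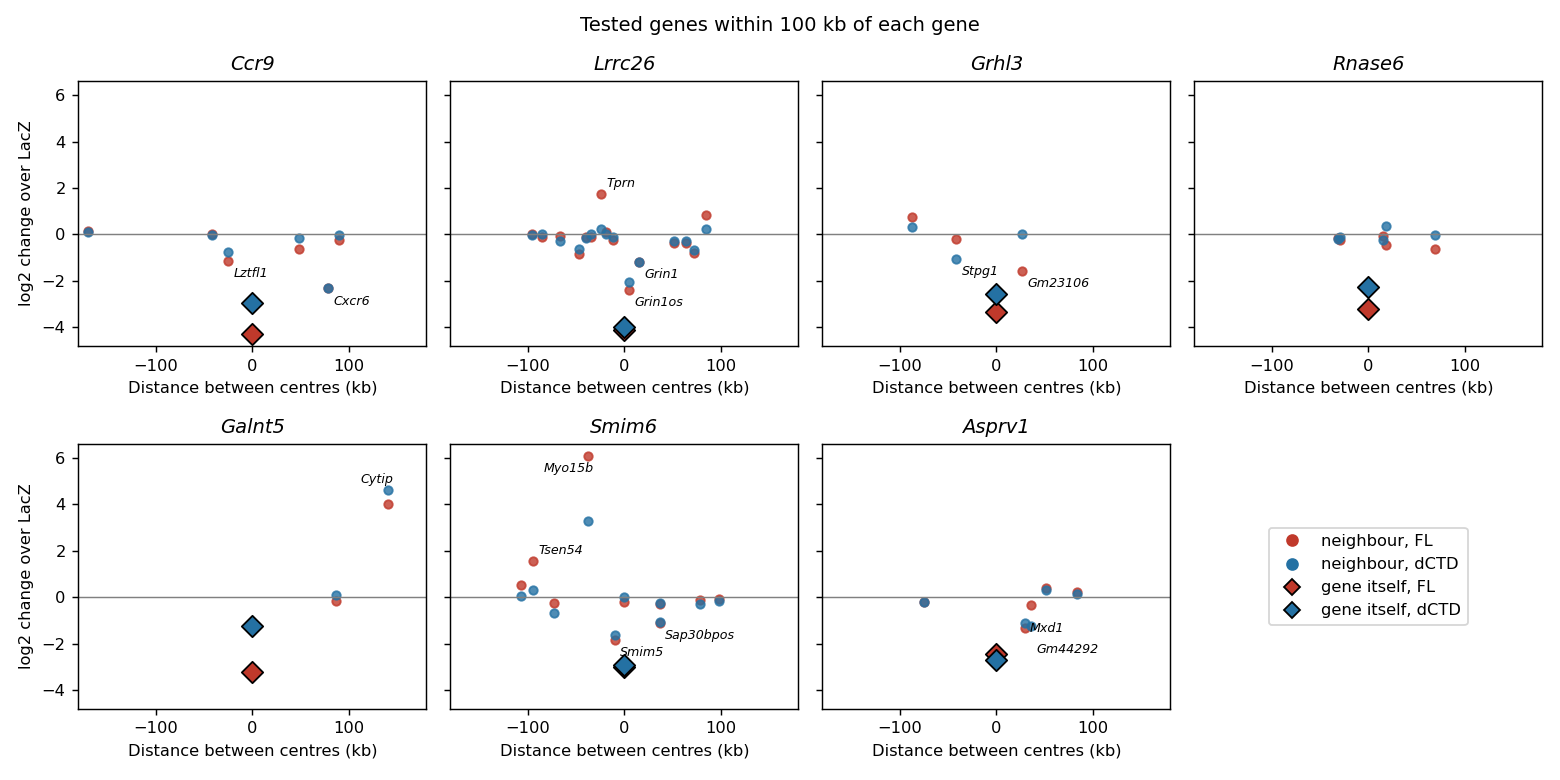
log2 change over LacZ of each tested gene within 100 kb of the 7 genes, against the distance between gene centres in kb, so that genes with a long span can lie beyond 100. Circles are neighbours, diamonds the gene itself, red FL and blue dCTD, and names mark changes of at least 1. Cxcr6 and Smim5 lie low beside Ccr9 and Smim6 and Grin1os beside Lrrc26, Myo15b and Cytip lie far above 0, and most other neighbours lie near 0.

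Relatives of each gene were read from lists by function, without the 7 genes themselves. For reading these counts, 28.3% of all tested genes were lower and 30.9% higher with FL, and 21.7% lower and 23.1% higher with dCTD. Of 7 other chemokine receptors tested, 3 fell and 1 rose with FL, and 4 fell and 3 rose with dCTD. Cxcr6 was the deepest, Ackr4, a scavenging receptor, changed by -0.72 ± 0.09 and -0.49 ± 0.09, and Cxcr4, the receptor for Cxcl12, by -0.24 ± 0.04 and -0.15 ± 0.04. Ccrl2, a chemerin-binding receptor, rose by 3.88 ± 0.21 and 1.70 ± 0.28 from 10.1 ± 2.74 normalized counts. Of 16 chemokines, 5 rose and 1 fell with either form. Ccl25, named for being the ligand of Ccr9 and outside the naming rule, was at 849 ± 71.6 with LacZ and changed by -0.06 ± 0.07 and 0.06 ± 0.07 (limma adjusted p = 0.468 and 0.467).

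Of 5 other BK channel subunits tested, 0 passed with either form by limma. The pore gene Kcnma1 was at 16.0 ± 6.65 with LacZ and changed by -0.25 ± 0.33 and -0.56 ± 0.36. Kcnmb4, at the higher LacZ level of 307 ± 11.9, changed by -0.17 ± 0.09 and -0.04 ± 0.10. Under scaling by total counts 1 of these 5 subunits was called lower with FL. Every count of 0 passing given here was also 0 at an unadjusted p under 0.05 and by edgeR and DESeq2. Of 6 members of the ribonuclease A family and its inhibitor, 4 fell and 0 rose with FL, and 2 fell and 1 rose with dCTD. The inhibitor Rnh1 changed by -0.29 ± 0.04 and -0.25 ± 0.04, and Rnase4 by -0.22 ± 0.04 and -0.12 ± 0.04. Rnase1, the pancreatic-type ribonuclease, changed in opposite directions, by -0.43 ± 0.11 with FL and 0.38 ± 0.10 with dCTD. Ang2, an angiogenin paralog, changed by -0.62 ± 0.19 with FL, a call lost without LacZ replicate 1 (-0.46, adjusted p = 0.0652), and by -0.01 ± 0.17 with dCTD. The named ribonuclease genes thus lay between -0.62 and 0.38, against -3.21 and -2.24 for Rnase6.

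Of 18 other mucin-type O-glycan enzymes, 10 fell and 3 rose with FL, and 7 fell and 3 rose with dCTD. Galnt6, a paralog of Galnt5, changed by -1.94 ± 0.05 and -1.38 ± 0.05. C1galt1c1, the chaperone of the core 1 enzyme, changed by -0.78 ± 0.04 and -0.60 ± 0.04, and Galnt4 by -0.46 ± 0.04 and -0.43 ± 0.04. Galnt2 rose by 1.78 ± 0.18 and 0.71 ± 0.22, and its call with dCTD was lost without LacZ replicate 3 (0.59, adjusted p = 0.0659). Beside these relatives, Galnt5 stood at -3.21 with FL and -1.23 with dCTD.

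Of 7 other calcium pump micropeptides and pumps, 5 fell and 2 rose with FL, and 3 fell and 3 rose with dCTD. Mrln, the muscle inhibitor myoregulin, changed by -1.84 ± 0.07 and -1.17 ± 0.06. Strit1, the pump activator DWORF, changed by -1.05 ± 0.12 and -0.55 ± 0.11, and the fast pump Atp2a1 by -1.12 ± 0.04 and -0.61 ± 0.04. Pln, the inhibitor phospholamban, rose from 6.45 ± 2.72 (n = 3) normalized counts to 288 ± 4.29 under FL and 970 ± 36.3 under dCTD, changes of 5.34 ± 0.21 and 7.08 ± 0.19. Inhibitors of the pump thus moved both ways, with Smim6 and Mrln lower and Pln higher.

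Of 7 other aspartic proteases, 3 fell and 1 rose with FL, and 4 fell and 1 rose with dCTD. Bace2 changed by -1.52 ± 0.09 and -0.41 ± 0.08, and Psen2, a presenilin, by -0.92 ± 0.05 and -0.59 ± 0.05. Nrip3 rose by 3.90 ± 0.11 and 2.16 ± 0.14. Of 4 other grainyhead-like factors and partners, 3 rose and 1 fell with FL, and 1 rose and 1 fell with dCTD. Grhl1, a grainyhead-like paralog, changed by -1.01 ± 0.13 and -0.99 ± 0.13. Tfcp2 rose by 0.41 ± 0.04 and 0.15 ± 0.04, and Tfcp2l1 rose by 2.36 ± 0.16 with FL and was at 0.19 ± 0.23 with dCTD.

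Of 8 epidermal barrier genes tested with FL, 4 rose and 2 fell, and of 5 tested with dCTD, 1 rose and 3 fell. Tgm1, the transglutaminase of the cornified envelope, changed by -2.92 ± 0.22 and -2.55 ± 0.20, below Asprv1 with FL and within the error of Grhl3 and Asprv1 with dCTD. Klf4, a barrier transcription factor, changed by -0.40 ± 0.04 and -0.44 ± 0.04. Sprr1a, a cornified envelope protein, rose by 2.57 ± 0.12 and 1.20 ± 0.16. Filaggrin (Flg) was listed at 0 in all 9 libraries, so the known substrate of Asprv1 was not detected. Of 11 planar polarity and neural tube closure genes, 6 fell and 2 rose with FL, and 7 fell and 2 rose with dCTD.

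**Figure D5:**
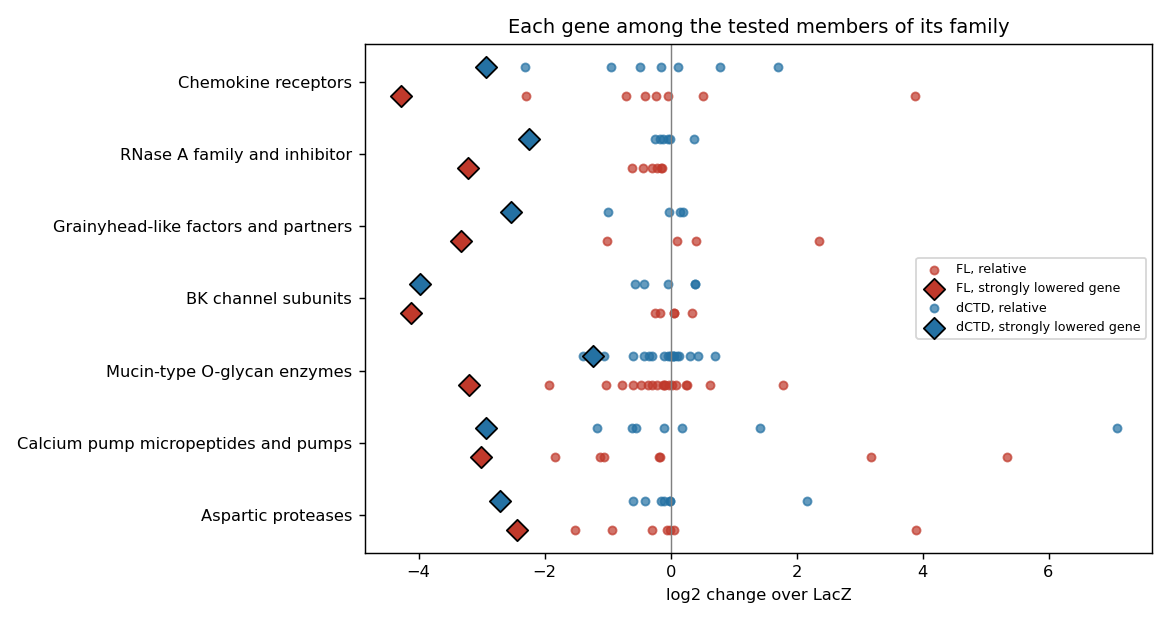
log2 change over LacZ of the tested members of each family with FL (red) and dCTD (blue). Diamonds are the 7 strongly lowered genes and circles their relatives. Each diamond except Galnt5 with dCTD lies below all relatives plotted in its row, and Pln and Nrip3 lie far to the other side.

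The label of the cells was checked with marker genes. All 8 muscle markers were tested and their summed level lay between 902065 and 947438 normalized counts in the control, 774979 and 803705 for FL, and 707764 and 722365 for dCTD. Of the 8, 6 fell and 1 rose with FL, and 4 fell and 2 rose with dCTD. Myh3, the embryonic myosin heavy chain, changed by -1.68 ± 0.04 and -1.79 ± 0.04, and Acta1, skeletal muscle actin, by -0.99 ± 0.04 and -0.68 ± 0.04. Des, the intermediate filament desmin, rose by 0.86 ± 0.04 and 0.18 ± 0.04. The muscle sum, of which Acta1, Des and Myh3 made up the larger share with LacZ, was thus lower with both forms. Single markers moved both ways, and the part of the sum in the falls of the 7 genes was not tested. Since these genes are known from epithelia and leukocytes, markers of those cells were read too. Of 18 epithelial markers, 17 had a read, Krt1 was at 0 in all libraries, and the summed level lay between 4502 and 4687 in the control, 3116 and 3316 for FL, and 3027 and 3192 for dCTD. Of the 9 tested with FL, 5 fell and 4 rose, and of the 8 tested with dCTD, 4 fell and 1 rose. Trp63 changed by -1.27 ± 0.05 and -0.61 ± 0.05, and Krt14 by -0.75 ± 0.07 and -0.90 ± 0.08. Other markers of the list went the other way with FL. Cldn4 rose by 3.44 ± 0.40 from 1.82 ± 0.877 normalized counts and was not tested with dCTD. Cdh1, the epithelial cadherin, chosen after its values were seen, rose by 0.95 ± 0.10 with FL and was at 0.02 ± 0.08 with dCTD. The epithelial sum, of which Trp63 and Krt14 made up the larger share with LacZ, was lower with both forms while single markers moved both ways, and its part in the falls of the 7 genes was not tested.

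Of 18 leukocyte markers, Tyrobp, C1qa and C1qb were at 0, and the summed level lay between 763 and 806 in the control, 817 and 922 for FL, and 705 and 728 for dCTD. Of the 8 tested with FL, 1 fell and 2 rose, and of the 7 tested with dCTD, 2 fell and 0 rose. For 7 secretory epithelium markers, with Tff3 at 0, the sum was 36.3 to 48.6, 15.6 to 25.9 and 10.6 to 19.2, and 1 of 2 tested fell with FL and 2 of 2 with dCTD. For 6 endothelial markers the sum was 279 to 311, 221 to 250 and 329 to 347, with 2 of 3 lower with FL and 1 lower and 1 higher with dCTD. Most of the leukocyte sum was Cd14, a lipopolysaccharide co-receptor, which had 477 ± 21.1 (n = 3) normalized counts with LacZ, 609 ± 35.1 with FL and 479 ± 8.11 with dCTD. Its changes were 0.35 ± 0.07 with FL, which passed, and -0.00 ± 0.07 with dCTD, which did not. Itgam, an integrin of myeloid cells, changed by -1.53 ± 0.21 and -1.25 ± 0.21. The leukocyte sum was thus above that of LacZ with FL and below it with dCTD, and its part in the falls of Ccr9 and Rnase6 was not tested. The secretory sum moved in the direction of Lrrc26 and Galnt5, at a level of few counts, and its part was not tested.

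The profile over the 6 FL and dCTD libraries, as log2 change from the LacZ mean, was used to find the genes most like the median of the 7, by root mean square difference, among 14187 other genes with a LacZ mean of at least 50. The nearest was Gdf5, a BMP family growth factor, at a difference of 0.240, with changes of -3.12 ± 0.09 and -2.90 ± 0.08. Next came Ly6a2, annotated as a transcribed pseudogene, at 0.326, Lgals12, a galectin, at 0.384, the long non-coding RNA Gm48395 at 0.402 and Tgm1 at 0.412. Gm48395 changed by -3.42 ± 0.09 with FL and -2.30 ± 0.09 with dCTD. These genes were picked by their likeness, so their changes are a description.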

How the data were processed

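RNA-seq was read from 9 libraries, 3 for each virus, which the design text calls biological replicates. The submitters' processing notes list, with no settings, build mm10, alignment by STAR 2.7.2b, counting by featureCounts 1.6.4, DESeq2 2.11.40.6, FastQC 0.72 and Trim Galore 0.4.3.1. The authors deposited 2 tables, FL with LacZ and dCTD with LacZ, each of 55421 genes. Each library's deposited signal is headed as featureCounts counts and was read here as a normalized count, that is, reads over a size factor. Undoing that factor gave whole reads at 100% of 317312 values (tolerance 0.001 reads). The authors' log2 fold changes and standard errors, Wald score and p-values stand in the same deposited tables, and only the log2 values are quoted. Deposited starts count from 0 and were raised by 1, after which 54862 of 55154 genes had the coordinates of GENCODE M21, which gave exon lengths. In 14 cases a gene name turned into a date was restored.

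Each form was compared with LacZ within its table by limma 3.58.1 (trend, robust, two-sided) in R 4.3.3 on log2(value + 1), keeping genes whose mean reached 10, with Benjamini-Hochberg adjustment at 0.05. The scale understates the change of low genes. FL and dCTD, normalized separately by the authors, were compared on recovered reads of all 9 libraries, jointly scaled by median-of-ratios factors. Alternatives were pseudocounts of 0.5 and 5, a minimum mean of 50 or no filter, TMM and total-count scaling, each library left out, a replicate block, 1 fit over all libraries, edgeR 4.0.16 and DESeq2 1.42.0. The steps were tested on simulated data. Same-numbered libraries deviated with correlations of -0.078 to 0.078, so replicate numbers were not used as pairs. Such small correlations cannot exclude that same-numbered cultures were handled together. Named are the 7 genes, most tested genes that overlap or lie nearest to them, and up to 4 members per list (lowest p in FL against LacZ). The genes most like the 7 in profile and genes at the top of the rankings are named too. Cxcr6 enters as a list member. A list member that the rule names is not reported here. The members and lists were chosen with earlier results of these data known. P-values measure the spread between these libraries. The in vitro RNA-binding assay of the design text was not analysed here. Promoters come from RefSeq, GRCm38.p6.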

Additional observations from a re-analysis of the deposited data

Results flagged for a closer look

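The results below have a difference between FL and dCTD past the threshold (limma, adjusted p of 0.05), where the effect over the same LacZ libraries differs between the forms. Values are FL minus dCTD on the log2 scale. Such a difference is common here, since 39.9% of all tested genes passed, 17.8% lower and 22.1% higher with FL. Of the 7 genes these were Galnt5 at -1.98, Ccr9 at -1.35, Rnase6 at -0.97 and Grhl3 at -0.80, each with FL below dCTD in all 3 libraries. That separation was seen in 22.8% of all tested genes. The Ppargc1a count also differed between these groups, and its part was not tested.

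Among neighbouring genes, Lztfl1 differed by -0.40, Cytip by -0.62, and Fyco1, Smim5 and Mxd1 by -0.23 each, while Myo15b differed by 2.81 and Tprn by 1.51. Among ribonuclease genes, Rnase1 differed by -0.82, Ang2 by -0.62 and Rnase4 by -0.10. Among O-glycan enzymes, Galnt6 differed by -0.56 and C1galt1c1 by -0.19, and Galnt2 by 1.07 the other way. Among calcium pump genes, Pln differed by -1.75, rising more with dCTD, and Mrln by -0.68, Atp2a1 by -0.53 and Strit1 by -0.51. Among proteases, Bace2 differed by -1.12 and Psen2 by -0.34, while Nrip3 differed by 1.73. Higher with FL were also Ccrl2 at 2.17, Tfcp2l1 at 2.16, Sprr1a at 1.37 and Tfcp2 at 0.25. Among marker genes, Cldn4 differed by 3.30, Cdh1 by 0.92, Des by 0.67, Cd14 by 0.34, Acta1 by -0.31 and Trp63 by -0.66. Of the genes most like the 7 or at the top of the rankings, Ly6a2 differed by -0.41, Gm48395 by -1.13 and Dppa2 by -1.65. No group had enough libraries for a test of single outlying libraries.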

How the results depend on the processing

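Over 16 alternatives, 4 of the 7 genes passed between FL and dCTD each time, and Ccr9, Grhl3, Rnase6 and Galnt5 kept their calls in all of them. Ccr9 ranged from -1.65 to -0.92 with a highest adjusted p of 0.0168, Rnase6 from -1.13 to -0.81 (0.0355), Grhl3 from -0.89 to -0.73 (2.63e-06) and Galnt5 from -2.13 to -1.78 (8.65e-07). Lrrc26, Smim6 and Asprv1 stayed short of the threshold, with lowest adjusted p of 0.277, 0.524 and 0.157. Leaving out 1 library, Lrrc26 ranged from -0.48 to 0.064 and turned sign without FL replicate 2 (0.022) or dCTD replicate 1, and the Asprv1 difference fell to 0.0078 without FL replicate 1. With any library left out, genes called ranged from 10007 to 10593 for FL against LacZ, 7220 to 7714 for dCTD against LacZ and 6196 to 7047 for FL against dCTD. The replicate numbers were not used as pairs. A replicate block gave 10720, 7396 and 7388 calls against 10799, 8094 and 7241 without it, and 4 of the 7 genes called. Scaling by total counts without Ppargc1a moved the calls for FL against LacZ to 4585 higher and 7145 lower, from 5637 and 5162, and for FL against dCTD to 3105 higher and 5411 lower, from 4015 and 3226. Uncalled relatives near 0 changed sign when single libraries were left out. Their ranges were -0.11 to 0.0071 for Ccl25 and -0.50 to 0.046 for Kcnma1 with FL and, with dCTD, -0.044 to 0.040 for Fyco1, -0.39 to 0.13 for Gm17021, -0.11 to 0.15 for Ang2, -0.06876 to 0.1304 for Cdh1 and -0.02023 to 0.03535 for Cd14, which was at 0.0003126 by edgeR and 5.165e-05 by DESeq2. In 1 fit over all 9 libraries, Fyco1 with dCTD was at 0.0017 and Cd14 at 0.007078. Gm17021 with FL passed in 5 alternatives, and the FL against dCTD difference of Smim5 was lost without FL replicate 1 that of Rnase4 without FL replicate 2 or dCTD replicate 1, and that of Cytip without FL replicate 2, FL replicate 3 or dCTD replicate 3, by DESeq2 and in 1 fit over all 9 libraries (adjusted p up to 0.396). Of 900 counts of list members, 73 moved by over 1.5 times, by 4 genes at most. The cause of these moves was not tested. Ccr9, Lrrc26 and Rnase6 with FL rest on 5 to 20 reads per library, which limits how finely their remaining levels can be compared.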

Other observations

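A wider set, chosen after its values were seen and by a measure that treats both forms evenly, held the 56 genes with a LacZ mean of at least 50 whose mean of both changes was -2 or lower. All 7 genes were in it. Of the 56, 32 were lower with FL than with dCTD, 0 were higher and 24 did not pass, with a median difference of -0.56. Of all tested genes, 17.8% were lower with FL and 22.1% higher. When the libraries were scaled by total counts without Ppargc1a, 33 of the 56 were lower and 0 higher, against 29.8% of all tested genes lower. This is a description of the set and no test.

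The deepest mean fall of this set was that of Hsd17b13, a lipid droplet protein known from the liver, at -4.09, with a difference between the forms of 0.21 that did not pass. Cybrd1, an iron-reducing enzyme of the duodenum, fell by 3.04 with a difference of 0.18. Dppa2, a pluripotency-associated gene, fell by 3.58, and its level was lower with FL by 1.65 on the log2 scale. Slc44a4, a choline transporter-like protein of epithelia, fell by 2.62 on the log2 scale, with a difference of -0.86. These genes were named after their values were seen.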
